A study of Mus musculus with 11 samples.

Results

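The 9 genes described here, Brinp2, Nefh, Insm1, Htr5b, Bsn, Ap3b2, Lmo4, Notch1 and Stox2, are known from the nervous system and from embryonic development, and were measured in mouse oocytes and 2-cell embryos with and without the histone chaperone Daxx. They were chosen by symbol for higher counts in knockout oocytes or knockout-derived embryos, out of 24421 genes in the count table, and no numeric threshold was part of that choice. Their difference between genotypes is therefore given as a description, with no p-value. RNA sequencing libraries came from 4 groups: 2 libraries of 2-cell embryos lacking maternal Daxx (mothers Daxx f/f; Zp3-cre, embryos m-z+), 3 of control 2-cell embryos (mothers Daxx f/f, embryos m+z+), 3 of knockout metaphase II (MII) oocytes (Daxx f/f; Zp3-cre) and 3 of control MII oocytes (Daxx f/f). The strain background was mixed C57BL/6J and 129/Sv, females were over 8 weeks old, and each library pooled 50 oocytes or embryos from 2 to 3 females. Oocytes were taken 20 h after hCG, and embryos 33 h after in vitro fertilisation with JF1 sperm, which brought an intact paternal Daxx allele. All groups carried floxed Daxx, and only the knockout females carried Cre under the Zp3 promoter, which is active in growing oocytes, so loss of Daxx and presence of the transgene cannot be told apart. In pooled RNA, fewer cells of a type and less RNA per cell cannot be told apart either.

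DAXX works with ATRX to place the histone variant H3.3 in heterochromatin and at repeats. The MII oocyte makes almost no new RNA and holds transcripts stored during growth, whereas the 2-cell embryo of the mouse destroys many stored transcripts and starts its own transcription. Outside the nervous system, many neuronal genes are kept silent by the repressor REST and its corepressors, and Notch receptors, cut by gamma-secretase after binding a ligand on a neighbouring cell, act with RBPJ to control the choice between progenitor and neuron.

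Promoter sequence was looked at because CpG-rich and CpG-poor starts are handled differently by chromatin and DNA methylation. Windows of 250 bases before and 50 after the annotated start were found for 5 of the 9 genes in a RefSeq table of GRCm38.p6: 1 each for Notch1, Bsn, Ap3b2 and Stox2 and 3 for Lmo4. The 250 bases before the start of 4 of them are printed 5′ to 3′ on the minus strand, with every CpG in capitals, because they include CpG-rich and CpG-poor starts among the genes. They lie at chr2:26503823-26504072 (Notch1), chr9:108190384-108190633 (Bsn), chr7:81493926-81494175 (Ap3b2) and chr8:47352349-47352598 (Stox2).
Notch1: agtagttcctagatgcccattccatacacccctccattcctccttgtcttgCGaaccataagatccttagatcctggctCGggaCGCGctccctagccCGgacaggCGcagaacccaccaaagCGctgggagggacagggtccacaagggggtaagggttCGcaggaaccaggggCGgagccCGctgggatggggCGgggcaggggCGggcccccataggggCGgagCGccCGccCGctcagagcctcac
Bsn: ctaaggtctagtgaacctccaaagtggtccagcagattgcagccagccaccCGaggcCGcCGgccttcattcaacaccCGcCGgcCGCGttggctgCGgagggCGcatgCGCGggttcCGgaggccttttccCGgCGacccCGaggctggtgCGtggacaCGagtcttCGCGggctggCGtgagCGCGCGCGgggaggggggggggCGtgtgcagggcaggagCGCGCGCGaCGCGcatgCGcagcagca
Ap3b2: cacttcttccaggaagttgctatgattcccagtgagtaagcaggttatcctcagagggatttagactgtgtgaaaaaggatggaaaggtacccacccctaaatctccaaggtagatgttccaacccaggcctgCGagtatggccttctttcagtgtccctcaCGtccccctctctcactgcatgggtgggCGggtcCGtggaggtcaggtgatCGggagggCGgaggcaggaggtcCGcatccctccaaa
Stox2: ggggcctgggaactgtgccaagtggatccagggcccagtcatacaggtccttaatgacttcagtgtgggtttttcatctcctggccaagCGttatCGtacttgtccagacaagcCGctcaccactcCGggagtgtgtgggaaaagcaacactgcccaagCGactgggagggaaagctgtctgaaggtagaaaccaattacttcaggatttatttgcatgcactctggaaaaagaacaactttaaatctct
Bsn had 32 CpGs in these bases and Notch1 16, against 7 for Ap3b2 and 5 for Stox2. Over the whole window the ratio of observed to expected CpG was 1.00 for Bsn, 0.66 for Notch1, 0.32 for Ap3b2 and 0.31 for Stox2, and 0.78 to 1.06 for the 3 Lmo4 windows, of which the richest had 44 CpGs before the start, more than any printed one. Across all 32851 windows of the table the median ratio was 0.38, and 35.8% exceeded 0.6, against 5 of the 7 windows of these genes (71.4%). Those 5 include all 3 of Lmo4, so by gene Bsn, Notch1 and Lmo4 exceeded 0.6 and Ap3b2 and Stox2 did not. The windows thus included both CpG-rich and CpG-poor starts. On the minus strand the Stox2 gene begins at chr8:47413847, so its only window here is an internal start, and its outermost start was not examined. Lmo4 windows other than the richest also lie inside the gene. The GC box GGGCGG, searched on both strands, was present in 5 of the 7 windows (Notch1, Ap3b2 and all 3 of Lmo4, which overlap in part), against 35.7% of all windows. In the printed Notch1 sequence it occurred 5 times, the nearest match 20 bases before the start. Also searched on both strands were a left part of the REST site, TTCAGCACC, and a right part of it, GGACAGC, along with the TATA box as TATAAA, an E-box bound by proneural factors as CAGCTG, and the core of the RBPJ site as GTGGGAA. The E-box was in the Bsn window and the RBPJ core in the Stox2 window, and the remaining 3 were in none of the 7. Of all windows, 0.371% held the left part of the REST site, 6.56% the right part, 13.6% the TATA box, 16.3% the E-box and 6.38% the RBPJ core.

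Library totals were 17978192 to 25308468 counts for embryos and 32582998 to 39798586 for oocytes, and 3 counts, the upper limit that a count of 0 allows for counting error, were worth 0.0754 to 0.167 CPM (counts of a gene per 1e+06 counted reads of the library). Daxx itself averaged 24.2 CPM in embryos of knockout females and 39.7 CPM in control embryos, and 8.14 CPM in knockout oocytes and 92.6 CPM in control oocytes, which leaves 60.8% and 8.80% of the control level. Of the 12 oocyte markers and 11 2-cell markers examined, none was at 0 in all libraries, and the summed 2-cell markers were at 828 to 927 CPM in knockout-derived embryos and 724 to 1010 CPM in control embryos, against 17.0 to 24.8 CPM in all oocytes. The labels do not say that replicates came from separate matings or days, so p-values measure the spread between these pools only.

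In oocytes all 9 genes were higher in the knockout, with no overlap between the 3 knockout and the 3 control libraries; 10.1% of the 14235 genes tested were separated in this direction. In embryos 7 of the 9 were separated in the same direction, against 11.4% of the 15414 genes tested, and the exceptions were Htr5b and Lmo4. These contrasts selected the genes, so nothing is read from these counts or from the calls that follow. By edgeR's quasi-likelihood test with Benjamini-Hochberg adjustment over all genes, 8 of the 9 were among the genes called higher in oocytes (0.450% of all tested) and 1, Ap3b2, among those called higher in embryos (0.0260% of all tested). The median log2 change of the 9 was 0.98 in embryos, with a range of 0.52 to 3.06, and 0.95 in oocytes, with a range of 0.45 to 2.57, whereas the median of all tested genes was 0.002 and 0.000.

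**Figure D1:**
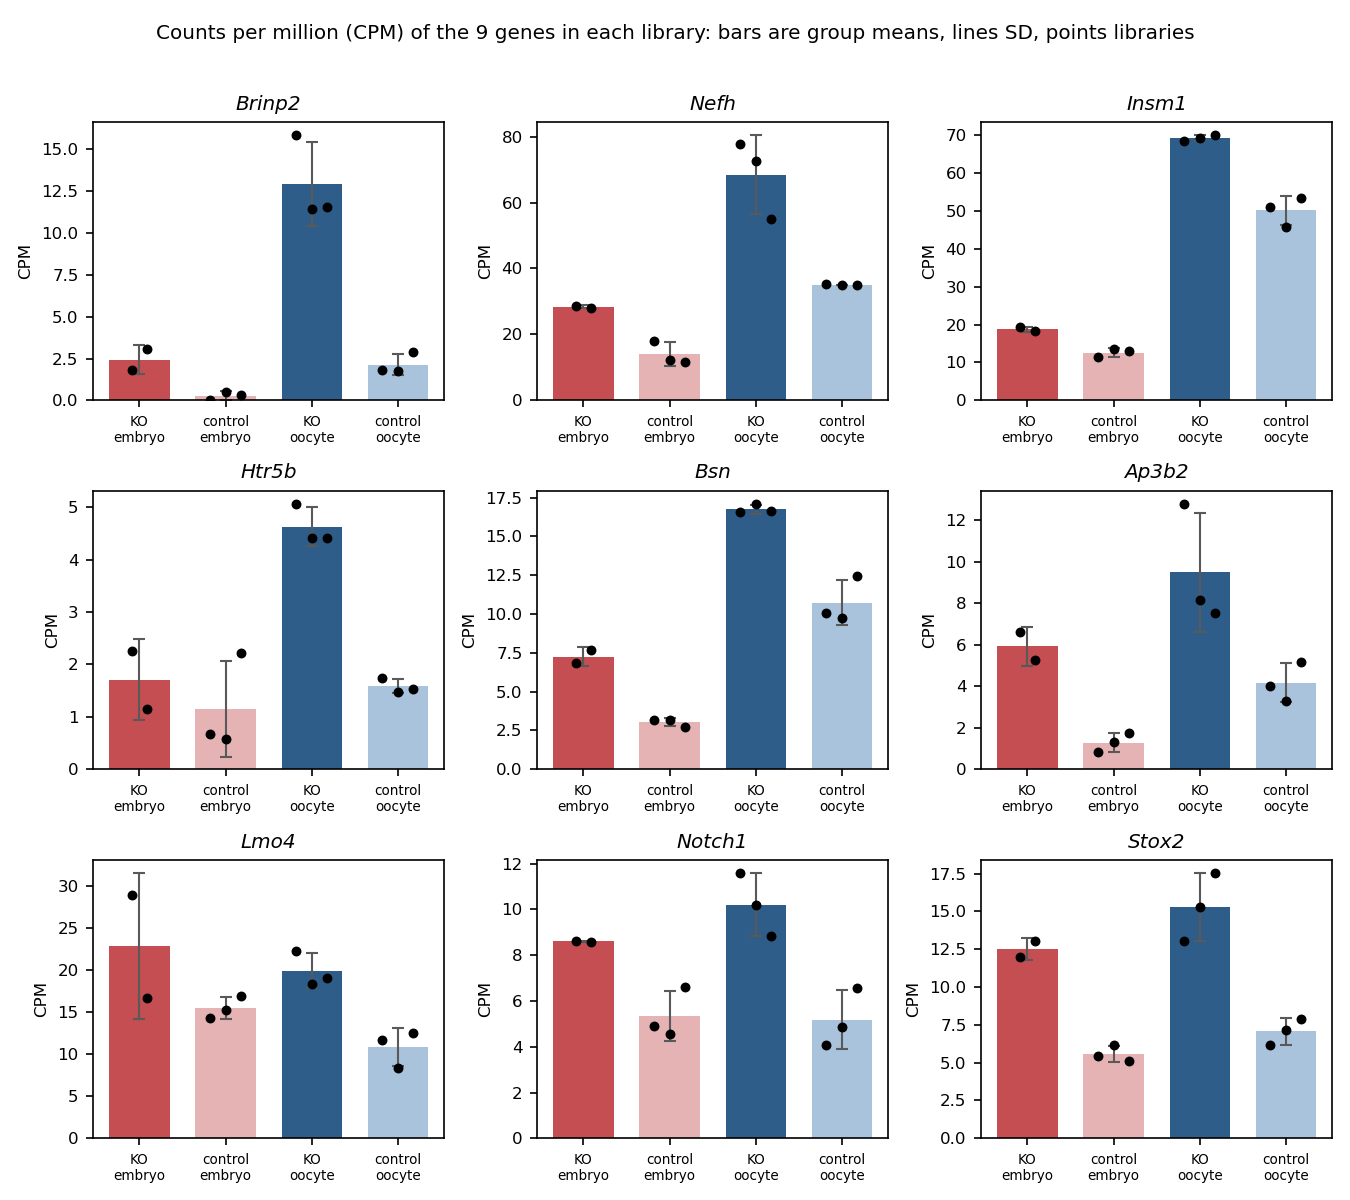
CPM (vertical axis, linear) of each of the 9 genes in the 4 groups; bars are group means, lines SD, points single libraries. In oocytes every knockout point lies above every control point for all 9 genes, and in embryos the points of Htr5b and Lmo4 overlap.

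Notch1 is the Notch receptor of the set (Entrez 18128, GRCm38 chr2:26457902-26503822, exon width 9751 bases in the deposited table). It was at 8.61 and 8.60 CPM in knockout-derived embryos, against 4.895, 4.545 and 6.60 CPM in control embryos. In oocytes it was at 11.6, 10.2 and 8.84 CPM in the knockout, against 4.08, 4.875 and 6.59 CPM in controls. Every knockout library was above every control library at both stages, and the nearest pair was the highest control embryo at 6.60 and the lower knockout embryo at 8.60 CPM. The log2 change was 0.65 (SE 0.26) in embryos and 0.95 (SE 0.17) in oocytes. Of the exon bases of Notch1, 7.5% are shared with 0610009E02Rik and 2.91% with Gm13568, both on the opposite strand, and the sources used here do not say whether the counting used strand. 0610009E02Rik itself had 0.531 to 0.711 CPM in knockout-derived embryos, 0.445 to 0.784 CPM in control embryos, 0.838 to 0.953 CPM in knockout oocytes and 0.430 to 0.704 CPM in control oocytes, a small part of the level of Notch1.

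Transcriptional regulators made up 3 of the genes. Insm1 (Entrez 53626, chr2:146221997-146225020) encodes a zinc finger repressor of neuronal and neuroendocrine progenitors. It was at 19.2 and 18.35 CPM in knockout-derived embryos, against 11.4, 13.5 and 12.9 CPM in control embryos, and at 68.5, 69.35 and 69.9 CPM in knockout oocytes, against 51.2, 45.9 and 53.4 CPM in control oocytes. Its groups stood apart at both stages by the smallest oocyte ratio of the set, 1.38, and its knockout oocytes lay within 1.42 CPM of each other. In log2 terms the knockout was 0.54 (SE 0.20) higher in embryos and 0.45 (SE 0.065) in oocytes.

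Lmo4 (Entrez 16911, chr3:144188530-144205255) encodes a LIM-only protein that binds the cofactor LDB1. Embryos of knockout females had 29.0 and 16.7 CPM, against 14.3, 15.3 and 16.9 CPM in control embryos. Only replicate 2 of the knockout-derived embryos was above the controls, and replicate 3 lay among them. Knockout oocytes had 22.3, 18.4 and 19.1 CPM, against 11.75, 8.32 and 12.6 CPM in control oocytes, with no overlap. Its log2 change was 0.52 (SE 0.22) in embryos, where it was 0.11 without replicate 2 of the knockout, and 0.85 (SE 0.15) in oocytes.

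Stox2 (Entrez 71069, chr8:47180048-47413847) encodes a protein with a winged-helix domain of the storkhead family. It was at 12.01 and 13.04 CPM in knockout-derived embryos, against 5.45, 6.165 and 5.12 CPM in control embryos, and at 13.1, 15.3 and 17.5 CPM in knockout oocytes, against 6.14, 7.19 and 7.91 CPM in control oocytes. The lowest knockout library was 1.95 times the highest control library in embryos and 1.65 times in oocytes. Fitted log2 changes were 1.13 (SE 0.24) in embryos and 1.09 (SE 0.13) in oocytes, nearly the same size at both stages.

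Structural, receptor and vesicle genes of neurons made up the other 5. Nefh (Entrez 380684, chr11:4938754-4948064) encodes the heavy neurofilament subunit of axons. It was at 28.7 and 28.1 CPM in knockout-derived embryos, against 18.1, 12.4 and 11.7 CPM in control embryos, and at 77.8, 72.5 and 54.9 CPM in knockout oocytes, against 35.1, 35.0 and 34.9 CPM in control oocytes. The control oocytes were almost level while the knockout oocytes spread over 22.9 CPM, and all of them were above the controls. Its log2 change was 0.98 (SE 0.22) in embryos and 0.95 (SE 0.11) in oocytes.

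Htr5b (Entrez 15564, chr1:121509758-121529312) encodes a serotonin receptor coupled to G proteins. Embryos of knockout females had 2.25 and 1.16 CPM, against 0.6675, 0.575 and 2.21 CPM in control embryos, that is 57 and 24 counts against 12, 11 and 51. Control embryo replicate 3 was as high as the higher knockout library, so the embryo groups overlapped, and the log2 change of 0.52 had an SE of 0.53. Knockout oocytes had 5.055, 4.41 and 4.42 CPM, against 1.75, 1.48 and 1.54 CPM in control oocytes. These oocyte groups were far apart relative to their spread, with a log2 change of 1.53 (SE 0.16).

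Bsn (Entrez 12217, chr9:108096022-108190419) encodes Bassoon, a scaffold of the presynaptic active zone. It was at 6.84 and 7.68 CPM in knockout-derived embryos, against 3.17, 3.19 and 2.735 CPM in control embryos, and at 16.55, 17.1 and 16.6 CPM in knockout oocytes, against 10.04, 9.75 and 12.4 CPM in control oocytes. The groups were separate at both stages, and control oocyte replicate 3 came nearest to the knockout. The log2 change was 1.23 (SE 0.28) in embryos and 0.62 (SE 0.11) in oocytes. Whether the 2 stages differed in this change was not tested, and the same holds for the other genes.

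Ap3b2 (Entrez 11775, chr7:81460399-81493997) encodes the neuronal beta subunit of the AP-3 adaptor, which sorts cargo into vesicles. It was at 6.60 and 5.26 CPM in knockout-derived embryos, against 0.834, 1.31 and 1.74 CPM in control embryos, and at 12.8, 8.19 and 7.52 CPM in knockout oocytes, against 4.02, 3.32 and 5.18 CPM in control oocytes. The lower knockout embryo library was 3.03 times the highest control one. In oocytes, knockout replicate 1 was well above the other two. Fitted log2 changes were 2.15 (SE 0.34) in embryos and 1.165 (SE 0.24) in oocytes. The predicted gene Gm45906 shares 5.59% of its exon bases on the same strand.

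Brinp2 (Entrez 240843, chr1:158245265-158356528) encodes a neural protein named for its induction by BMP and retinoic acid. Embryos of knockout females had 1.82 and 3.04 CPM (46 and 63 counts), against 0, 0.523 and 0.304 CPM (0, 10 and 7 counts) in control embryos. Knockout oocytes had 15.85, 11.4 and 11.6 CPM, against 1.81, 1.73 and 2.86 CPM in control oocytes. It had the largest ratio of mean CPM of the 9 genes at both stages, 8.82 in embryos and 6.06 in oocytes, and the lowest knockout library was 3.48 times the highest control library in embryos and 3.99 times in oocytes. The log2 change was 3.06 (SE 0.65) in embryos, where 1 control library had 0 counts and the other 2 had 17 together, and 2.57 (SE 0.21) in oocytes.

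**Figure D2:**
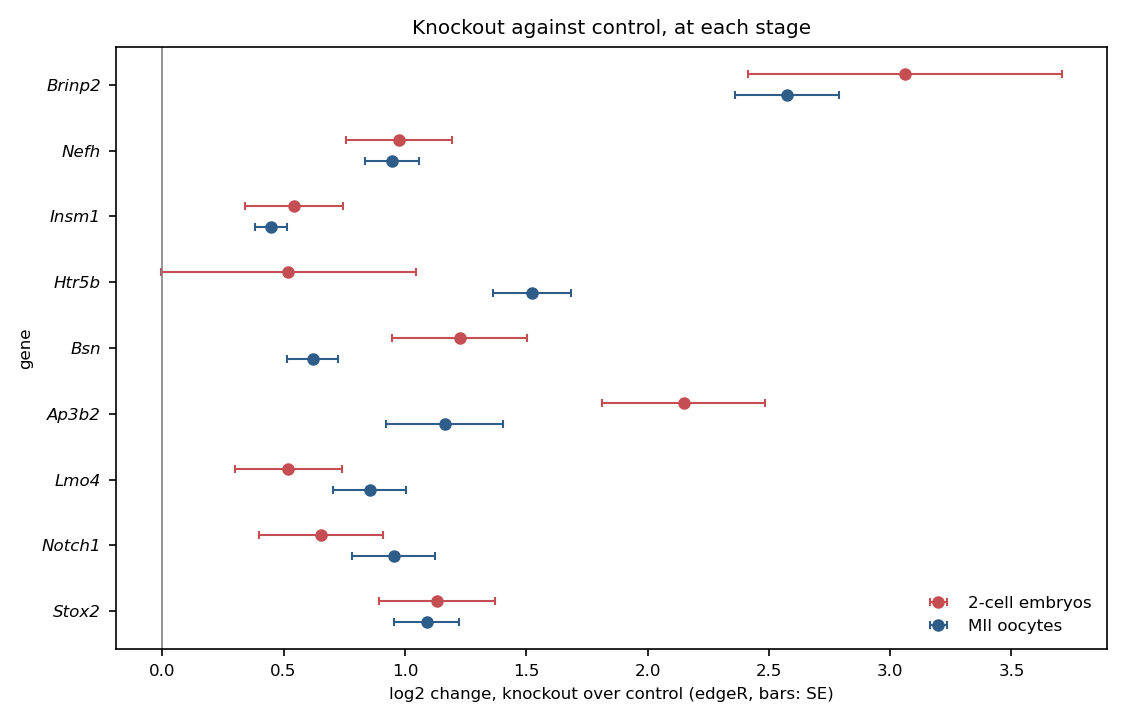
Log2 change of each gene, knockout over control (horizontal axis, edgeR), in 2-cell embryos and MII oocytes; points are fitted changes and bars 1 SE. Brinp2 lies farthest right at both stages, Ap3b2 at 2.15 in embryos is next, and the Htr5b bar in embryos reaches 0.

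By CPM per kilobase of the deposited gene width, which allows levels of different genes to be compared, Insm1, Nefh and Lmo4 were the 3 most abundant in every group. In knockout-derived embryos Lmo4 averaged 7.42 and Nefh 7.11 CPM per kilobase, with overlapping libraries, ahead of Insm1 at 6.22, and the other 6 ran from 1.13 (Stox2) down to 0.455 (Bsn). In control embryos the order was Lmo4 at 5.04, Insm1 at 4.17 and Nefh at 3.52 CPM per kilobase, of which Insm1 and Nefh overlapped, and the lowest gene was Brinp2 at 0.0524. In knockout oocytes Insm1 averaged 22.9, Nefh 17.1 and Lmo4 6.47 CPM per kilobase, each clear of the next. Brinp2 came next there at 2.46 CPM per kilobase and overlapped Htr5b at 2.29, whereas in control oocytes it was the lowest of the 9 at 0.406. In control oocytes Insm1 (16.6), Nefh (8.77) and Lmo4 (3.53) were again clear of each other, and the other 6 lay between 0.787 (Htr5b) and 0.406 CPM per kilobase, each overlapping its neighbour in the order.

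The step from oocyte to embryo was tested within each genotype. These contrasts share libraries with the genotype contrasts. Choosing genes for high knockout oocyte counts by itself lowers the change between knockout stages, and choosing them for high knockout embryo counts raises it. Low counts in control oocytes or control embryos likewise raise or lower the change between control stages. The adjusted p-values of both stage contrasts do not allow for this choice. From control oocytes to control embryos, 5 of the 9 genes fell, 1 rose and 3 did not pass (edgeR adjusted p threshold 0.05), while 40.0% of the 15577 genes tested fell and 43.1% rose, so a fall is common among all genes and nothing particular to the 9 is read from the count. The 5 were Brinp2, at 12.9% of the oocyte level in embryos (log2 change -2.94, SE 0.57, edgeR adjusted p = 0.00046), Insm1 at 25.15% (-2.02, adjusted p = 2.59e-08), Bsn at 28.2% (-1.85, adjusted p = 2.38e-06), Ap3b2 at 31.0% (-1.70, adjusted p = 0.000217) and Nefh at 40.2% (-1.34, adjusted p = 1.47e-05). Their embryo libraries were all below their oocyte libraries. Lmo4 was the gene that rose, to 142.6% of the oocyte level (log2 change 0.49, SE 0.18, edgeR adjusted p = 0.0234), but its adjusted p was 0.0637 without control embryo replicate 3 and 0.151 without control oocyte replicate 2. Notch1 had a log2 change of 0.02 (SE 0.23), Stox2 -0.37 (SE 0.185) and Htr5b -0.46 (SE 0.44), with edgeR adjusted p = 0.945, 0.082 and 0.346. Without control embryo replicate 3, where Htr5b was high, the Htr5b change was -1.36 with an adjusted p of 0.0043.

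Between knockout oocytes and knockout-derived embryos 6 of the 9 genes fell by edgeR and 3 did not pass, while 37.7% of the 16592 genes tested fell and 42.5% rose. None of the 9 rose, 0 in edgeR, 0 in DESeq2 and 0 at an unadjusted p under 0.05. Brinp2 in embryos was at 18.8% of the oocyte level (log2 change -2.47, SE 0.27, edgeR adjusted p = 2.11e-05), Insm1 at 27.1% (-1.93, adjusted p = 6.48e-08), Htr5b at 36.8% (-1.475, adjusted p = 0.000955), Nefh at 41.5% (-1.31, adjusted p = 1.96e-05) and Bsn at 43.3% (-1.25, adjusted p = 2.78e-05). Ap3b2 fell to 62.5% (log2 change -0.72, SE 0.25, edgeR adjusted p = 0.0221), and this call rested on single libraries. Its adjusted p was 0.0577 without knockout embryo replicate 2, 0.114 without knockout embryo replicate 3 and 0.0719 without knockout oocyte replicate 1. Lmo4, Notch1 and Stox2 had log2 changes of 0.15, -0.29 and -0.34, with edgeR adjusted p = 0.508, 0.125 and 0.087. Without knockout embryo replicate 3 the Lmo4 change was 0.46 with an adjusted p of 0.00746, and without replicate 2 it was -0.28. Without knockout oocyte replicate 1 the Stox2 adjusted p was 0.0375. Insm1 had log2 stage changes of -1.93 in the knockout and -2.02 in the control, and Nefh -1.31 and -1.34. The values lay farthest apart for Htr5b, at -1.475 in the knockout and -0.46 in the control, and for Ap3b2, at -0.72 in the knockout and -1.70 in the control, but the control value of Htr5b was -1.36 without control embryo replicate 3. The difference between genotypes in the stage change was not tested.

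**Figure D3:**
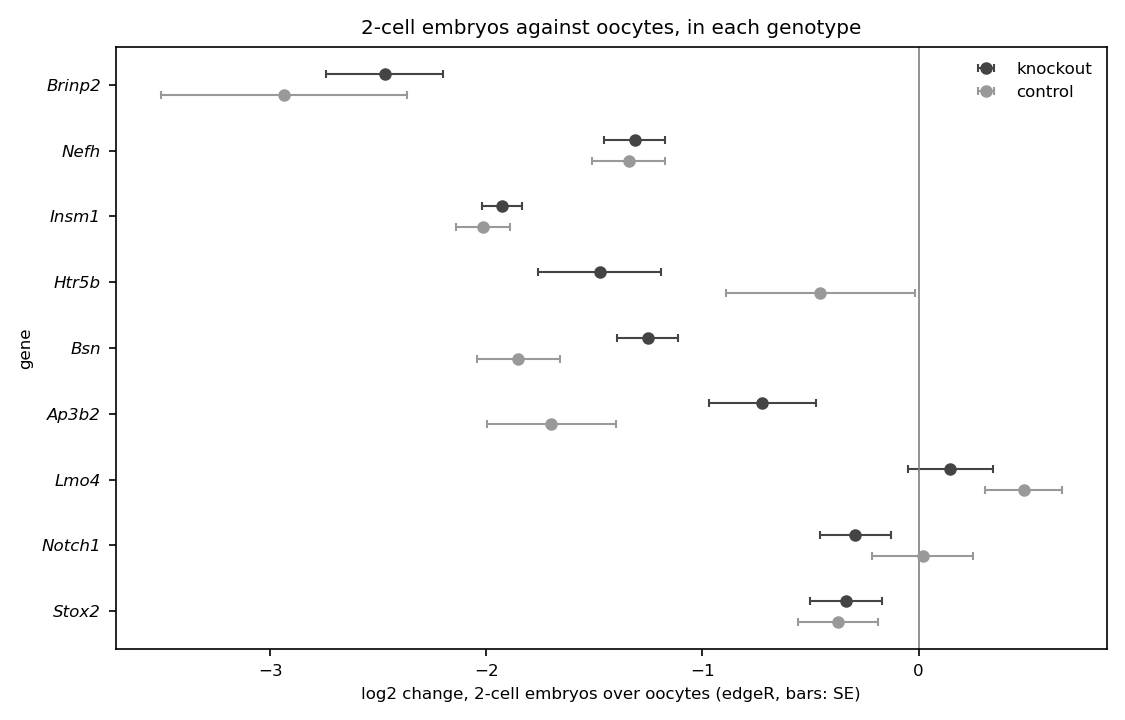
Log2 change of each gene, 2-cell embryos over oocytes (horizontal axis, edgeR), in the knockout and in the control; points are fitted changes and bars 1 SE. Brinp2, Nefh, Insm1, Bsn and Ap3b2 lie left of 0 in both genotypes, and Lmo4, Notch1 and Stox2 lie within 0.49 of 0.

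Which pools were high within a group differed between genes. In knockout oocytes replicate 1 held the highest value for 6 of the 9 genes, in control oocytes replicate 3 was highest for 7 and replicate 2 lowest for 6, and in knockout-derived embryos replicate 2 was highest for 6. The summed CPM of the 9 genes was 102 to 115 in knockout-derived embryos and 57.5 to 60.3 in control embryos, and 210 to 244 in knockout oocytes and 118 to 137 in control oocytes. After removal of the group means, the 36 pairs of genes had a median Pearson r of 0.20 over the 11 libraries, from -0.60 for Htr5b with Bsn to 0.70 for Ap3b2 with Lmo4, and 23 were positive. The median over all pairs of 13282 genes was 0.019, with quartiles of -0.32 and 0.35. These values are a description over pools that share depth and handling.

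**Figure D4:**
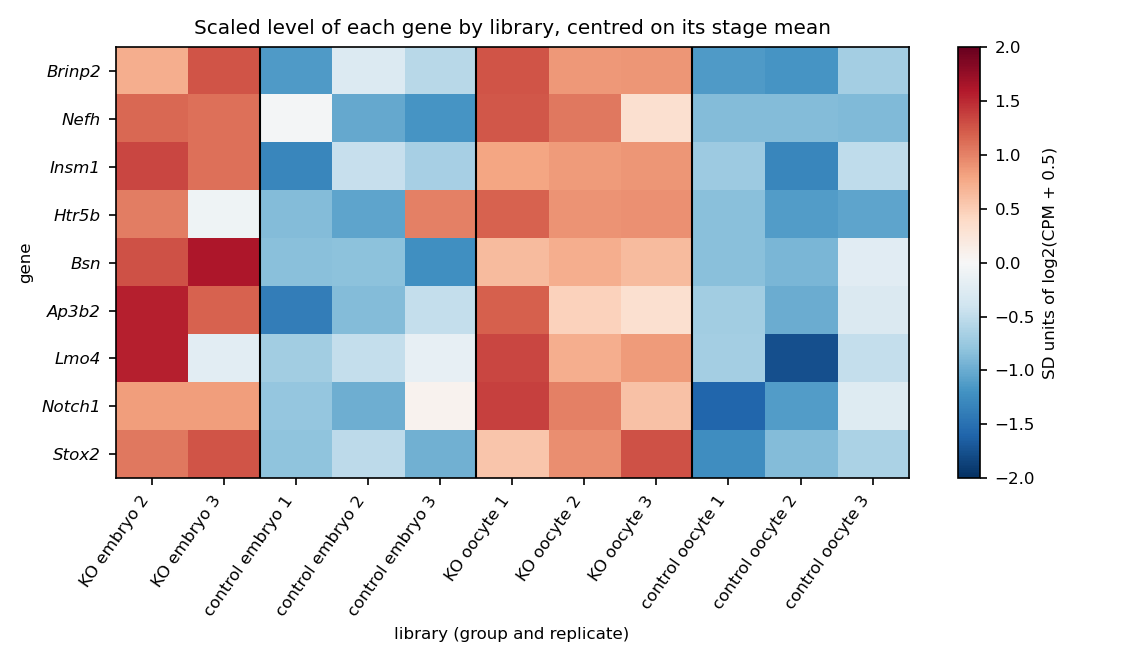
Scaled level of each gene (rows) in each library (columns): log2(CPM + 0.5), centred on the mean of its stage and divided by the SD, in SD units by colour. Knockout columns are red and control columns blue for most genes, with Htr5b in control embryo 3 (1.00) and Lmo4 in knockout embryo 3 (-0.21) among the 4 cells on the other side of 0.

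The genes most like the 9 were ranked by the Pearson r of their scaled profile with the mean profile of the 9, over 11 libraries and 12823 genes of at least 1 CPM on average, as a description. They were Sox6 (0.976), a transcription factor of cartilage, muscle and neural progenitors, Csf1 (0.967), the growth factor of macrophages, Lrrc4 (0.964), a synaptic adhesion protein, Krt73 (0.962), a keratin of the hair follicle sheath, and Myocd (0.959), a coactivator of smooth and cardiac muscle genes. Sox6 averaged 43.9 ± 5.32 CPM in knockout-derived embryos and 23.4 ± 2.65 CPM in control embryos, and 31.0 ± 6.24 CPM in knockout oocytes and 17.6 ± 2.41 CPM in control oocytes (SD, n = 2, 3, 3 and 3). Like Brinp2 and Ap3b2, it was highest in replicate 1 of the knockout oocytes, at 38.2 CPM against 27.25 and 27.55 CPM in the other two. Krt73 averaged 10.3 CPM in knockout-derived embryos and 1.85 CPM in control embryos, and 34.8 CPM in knockout oocytes and 7.92 CPM in control oocytes.

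Other genes of the same pathways were followed with 10 lists of 215 distinct genes, of which 136 were tested in oocytes and 164 in embryos. In oocytes 3 rose, Htr3a and Tubb3 among them (2.21%, against 0.450% of all genes), and 0 fell, against 0.133% of all genes, by edgeR. At an unadjusted p under 0.05, 11 were higher and 9 lower, and DESeq2 called 3 higher and 1 lower. In embryos edgeR called 0 in either direction, with 7 higher and 0 lower at an unadjusted p under 0.05, and DESeq2 called 0. The list genes had a median log2 change of 0.06 in embryos and 0.01 in oocytes, against 0.002 and 0.000 for all genes.

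Among the neurogenic transcription factors, the most abundant were Neurog3, with log2 changes of 0.20 in embryos and 0.00 in oocytes, Myt1 with -0.18 and -0.21, and Lhx2 with 0.44 and 0.31, and these 3 did not pass.

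Htr3a, an ion channel gated by serotonin, was 1 of 7 serotonin genes tested of 16. It was at 1.39, 1.06 and 0.926 CPM in knockout oocytes, against 0.123, 0.251 and 0.4165 CPM in control oocytes, which gave a log2 change of 2.03 ± 0.38 (SE), at an adjusted p of 0.0366 by edgeR. This was kept in 4 of 11 alternatives, with adjusted p between 0.00293 and 0.279, and was lost with the replicate block, with all 11 libraries in 1 fit, without any 1 of the knockout libraries, and without control replicate 1 or 2. Htr5a, the nearest relative of Htr5b, was at 75.6 ± 4.62 CPM in knockout oocytes and 70.9 ± 7.66 CPM in control oocytes (SD, n = 3 each), with a log2 change of 0.07, and had a log2 change of 0.59 in embryos. Both missed the threshold (edgeR adjusted p = 0.822 in oocytes and 1 in embryos). In embryos the groups of Htr5a were separate. At an unadjusted p under 0.05 it was the 1 serotonin gene higher in embryos, and 0 were lower. Tph2, which makes serotonin in neurons, and Slc6a4, its transporter, had log2 changes of -0.12 and -0.22 in oocytes. Their knockout oocyte libraries lay below the control ones, but neither gene passed (edgeR adjusted p = 0.739 and 0.395). At an unadjusted p under 0.05, 1 serotonin gene, Htr3a, was higher in oocytes and 1, Slc6a4, was lower.

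Tubb3, the neuronal beta-tubulin, was 1 of 11 cytoskeletal genes tested of 18. It was at 200.4, 213.2 and 208.7 CPM in knockout oocytes, against 178.0, 179.6 and 169.6 CPM in control oocytes. The groups were separate, but the change was small, with a log2 change of 0.22 ± 0.04 (SE), at an adjusted p of 0.0389 by edgeR, kept in 6 of 12 alternatives with adjusted p between 0.00486 and 1. It was lost with all 11 libraries in 1 fit, without any 1 of the control libraries and without knockout replicate 2 or 3. At an unadjusted p under 0.05, 3 cytoskeletal genes were higher and 0 lower in oocytes, Tubb3 among them. In embryos 1 was higher and 0 lower. Ina was in both counts, with log2 changes of 0.45 in embryos and 0.25 in oocytes and separate groups at both stages. Map1b and Dpysl3, 2 abundant cytoskeletal genes, had log2 changes of 0.09 and -0.05 in embryos and -0.07 and 0.01 in oocytes. Map1b averaged 354 ± 62.7 CPM in knockout oocytes and 366 ± 16.9 CPM in control oocytes (SD, n = 3 each).

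In the Notch, AP-3, presynaptic, LMO, REST and developmental lists no gene passed in either stage by edgeR. Of 38 Notch pathway genes, 36 were tested in embryos and 28 in oocytes, with median log2 changes of 0.07 and -0.02. At an unadjusted p under 0.05, 0 Notch genes differed in embryos and 1 was lower in oocytes, and DESeq2 called 0. The ligand Jag1 averaged 142 CPM in knockout-derived embryos and 140.0 CPM in control embryos, and 1440 CPM in knockout oocytes and 1430 CPM in control oocytes. The receptor protease Furin had log2 changes of 0.23 in embryos and -0.02 in oocytes. The AP-3 partners of Ap3b2 were all 6 tested: Ap3b1, the widely used beta subunit, averaged 172 CPM in knockout oocytes and 177 CPM in control oocytes, and Ap3d1 and Ap3m1 had log2 changes of -0.03 and -0.06 there. Of 32 presynaptic genes, which share the active zone with Bassoon, 27 were tested in embryos and 22 in oocytes, with medians of -0.02 and -0.05. At an unadjusted p under 0.05, 0 presynaptic genes differed in embryos, while 1 was higher and 4 were lower in oocytes, and DESeq2 called 0. Among them Ppfia1 and Unc13c had log2 changes of -0.05 and 0.02 in oocytes, and Unc13b -0.17. The LMO4 partner Ldb1 had log2 changes of 0.13 in embryos and -0.02 in oocytes, and the relative Lmo1 0.43 and 0.06.

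Rest itself averaged 825 ± 10.6 CPM in knockout-derived embryos and 912 ± 63.6 CPM in control embryos, and 268 ± 15.4 CPM in knockout oocytes and 270 ± 0.962 CPM in control oocytes (SD, n = 2, 3, 3 and 3). Its log2 change was -0.18 (SE 0.14) in embryos and -0.03 (SE 0.05) in oocytes, with edgeR adjusted p = 1 and 0.897. EdgeR called 0 of the 17 genes of REST and its corepressors, 1 had an unadjusted p under 0.05 in oocytes, and DESeq2 called 1 lower there. Of 20 textbook targets of REST, 10 were tested in embryos and 9 in oocytes, 0 passed in edgeR or DESeq2, and 0 had an unadjusted p under 0.05. Small positive log2 changes were seen for 10 of 10 in embryos, with a median of 0.12, and changes were positive for 5 of 9 in oocytes, with a median of 0.03. The secretory granule gene Scg3 had log2 changes of 0.02 in embryos and -0.01 in oocytes, and Chga 0.07 and 0.03. Of 34 developmental transcription factors, 25 were tested in embryos and 16 in oocytes, with medians of 0.09 and 0.24. EdgeR and DESeq2 called 0 of them, although 3 in embryos and 2 in oocytes had an unadjusted p under 0.05, all higher. The log2 change was positive for 16 of the 16 tested in oocytes and 15 of the 25 tested in embryos. Tbx3, Gata4 and Pax2 had log2 changes of -0.04, -0.09 and 0.42 in embryos and 0.01, 0.22 and 0.25 in oocytes.

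**Figure D5:**
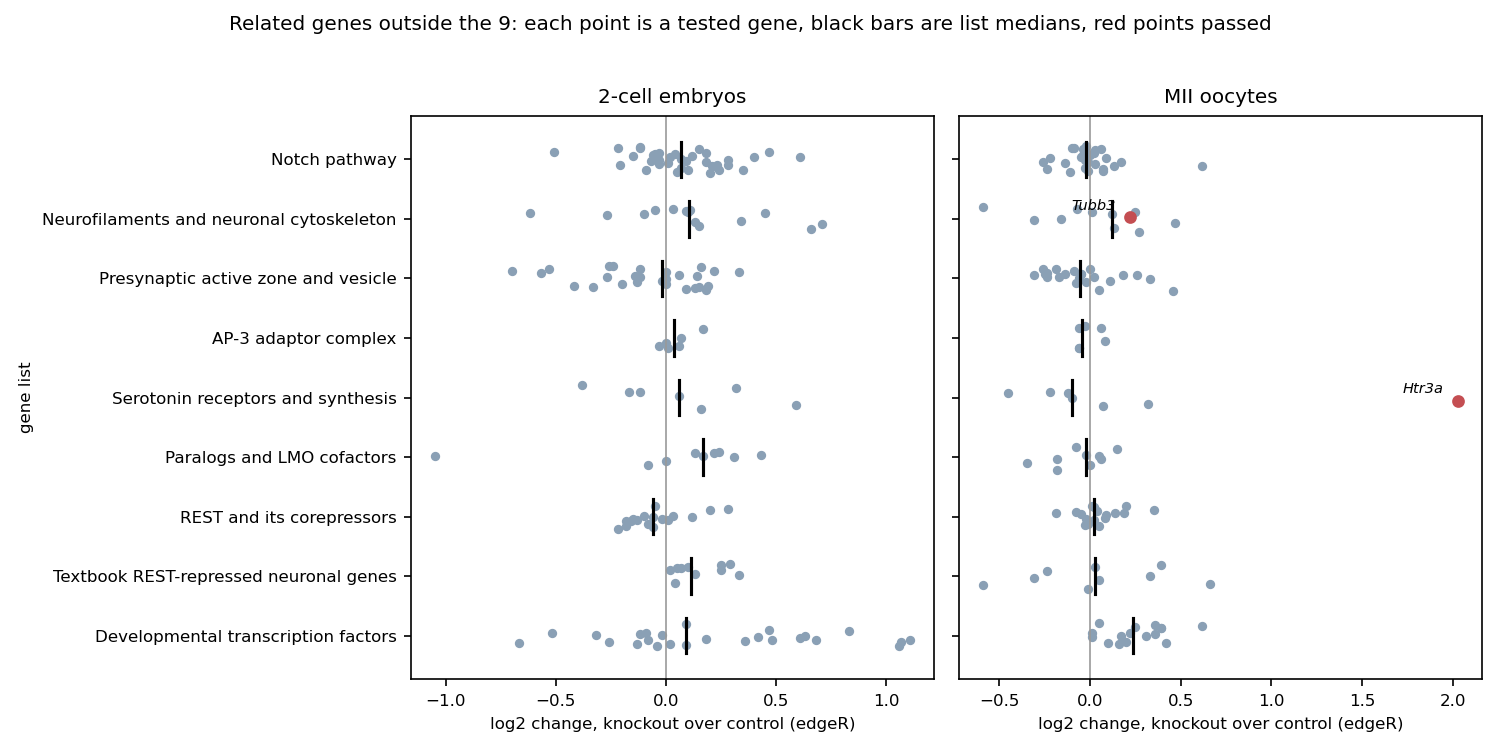
Log2 change, knockout over control (horizontal axes, edgeR), of each tested gene in 9 of the lists related to the 9 genes (rows), for 2-cell embryos on the left and MII oocytes on the right; black bars are list medians and red points passed an adjusted p of 0.05. Most points lie around 0, and Htr3a and Tubb3 in oocytes are the red ones.

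Genes within 200 kb of the 9 were examined for changes shared along the chromosome. There were 75, of which 59 were tested in embryos and 51 in oocytes, with median log2 changes of -0.03 and 0.04. In embryos edgeR and DESeq2 called 0 of them, and 0 had an unadjusted p under 0.05. In oocytes 1 rose (1.96%, against 0.450% of all genes by edgeR) and 0 fell in edgeR and in DESeq2. At an unadjusted p under 0.05, 5 were higher and 1 lower. Of these, 4 were among the 14 tested around Notch1, all higher, and include 0610009E02Rik, which overlaps Notch1 on the opposite strand. Another 2 were among the 15 tested around Bsn. The gene that rose was Card9, an adaptor of innate immune receptors, which lies 96957 bases from Notch1. It was at 3.22, 2.37 and 1.75 CPM in knockout oocytes, against 0.2455, 0.226 and 0.5466 CPM in control oocytes, with a log2 change of 2.80 ± 0.35 (SE), at an adjusted p of 0.00456 by edgeR, kept in all 12 alternatives (adjusted p 2.99e-09 to 0.0426). In embryos Card9 had a log2 change of 0.18 (SE 0.55) and its groups overlapped.

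Markers of other cells that pools of oocytes could hold were read in the same libraries. The 14 neuron and glia markers, of which 10 were tested in embryos and 7 in oocytes, summed to 48.3 to 49.3 CPM in knockout-derived embryos and 30.9 to 49.0 CPM in control embryos, and to 49.2 to 53.5 CPM in knockout oocytes and 44.5 to 61.1 CPM in control oocytes. EdgeR called none of them, and 1, Mbp, had an unadjusted p under 0.05 in oocytes and was called higher there by DESeq2, and the oocyte sums overlapped. The 14 granulosa and cumulus markers summed to 15.7 to 21.2 CPM in knockout-derived embryos and 12.2 to 16.5 CPM in control embryos. In oocytes their sums did not overlap, at 34.9 to 39.3 CPM in the knockout and 29.2 to 32.8 CPM in controls, and edgeR called 0 of the 7 tested (2 had an unadjusted p under 0.05, and DESeq2 called 1, Ptgs2). The 11 sperm and spermatid markers also stood apart in oocytes, at 214 to 223 CPM in the knockout and 202 to 210.0 CPM in controls, although Odf2 made up most of the sum and its own groups overlapped, at 208 CPM on average in the knockout and 199 CPM in controls. Prm2, a sperm protamine, passed (log2 change 1.54, SE 0.18, edgeR adjusted p = 0.00277). The 7 blood markers summed to 2.70 to 3.35 CPM in knockout oocytes and 1.17 to 2.36 CPM in control oocytes, without overlap. In embryos their sums were also apart, at 3.91 to 3.96 CPM in knockout-derived embryos and 1.78 to 3.61 CPM in controls. Cd68 was separate at both stages, with log2 changes of 0.64 in embryos and 0.71 in oocytes. Lyz2, also tested in embryos, had -0.70 there, and edgeR called 0 blood markers at either stage. The globins Hbb-bs and Hba-a2 were at 0 in all libraries. None of the granulosa, sperm, blood or neuron markers was at 0 in all libraries apart from those 2 globins. The part of these markers in the results was not tested.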

How the data were processed

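Libraries were built from total RNA of the pools with the SoLo RNA-Seq kit, per the labels' protocols. The authors deposited whole-number read counts for 24421 genes by Entrez number in 11 libraries, with a width in bases per gene (their own value), used here for levels per kilobase. Per the submitters' processing notes, STAR 2.5.0a, SAMtools and GRCm38 (mm10) were used; which program counted the reads, and whether it used strand or shared reads, is not recorded in the sources at hand. Symbols were matched through a RefSeq table for 24387 genes, and exon overlaps were taken from the GENCODE annotation of GRCm38. A knockout-derived embryo library numbered replicate 1 was not analysed here.

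CPM are counts of a gene per 1e+06 counted reads of its library. Tests were run in edgeR 4.0.16 (R 4.3.3), with genes kept by filterByExpr (count minimum 10, total minimum 15), TMM scaling, the quasi-likelihood F test, Benjamini-Hochberg adjustment over all genes tested and a threshold of 0.05, with a separate fit for each pair of groups (6 libraries, or 5 with knockout-derived embryos). A SE is the log2 change divided by the square root of F. DESeq2 1.42.0 was an alternative, beside RLE scaling, other filters, the replicate number as a block, a joint fit of all 11 libraries and leaving out single libraries. The fits were tested on simulated data. Counts of replicates differed by 4.30 to 27.9 chi-square units per degree of freedom, so no library was a copy of another. Deviations from the group mean correlated between -0.223 and 0.234 for same-numbered libraries of the 2 genotypes. For other-numbered libraries they correlated between -0.398 and 0.307. With 2 or 3 libraries per group the deviations depend on each other, so this cannot decide whether replicate numbers pair libraries.

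The 9 genes and the lists were chosen with earlier results of these data known. Named besides the 9 and Daxx were list genes that passed, otherwise up to 3 of the highest mean CPM per list, neighbours that passed, and the 5 genes of most similar profile. Outside that rule, Htr5a, Tph2, Slc6a4, Ina, Map1b, Dpysl3, Neurog3, Myt1, Lhx2, Mbp, Ptgs2 and the overlapping transcripts were chosen after their values were seen. Some genes that the rule names are left out here. No set test was run.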

Additional observations from a re-analysis of the deposited data

How the results depend on the processing

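The 9 genes were chosen for higher counts in these same libraries, so a kept direction in refits adds no support. In oocytes the genotype changes of the 9 genes kept direction and moved by less than the replicate spread in 108 of 108 alternative values, and in embryos in 97 of 99. The embryo exceptions were Htr5b, from -0.004 to 1.39 with 1 library left out, and Brinp2, at 3.815 without control embryo replicate 2; Lmo4, whose spread was wide, ran from 0.11 to 0.83. Calls over all genes moved more. In oocytes edgeR called 64 higher and 19 lower, against 155 and 73 in DESeq2, 18 and 4 with all 11 libraries in 1 fit, 130 and 53 without a filter, 16 to 117 and 4 to 40 with 1 library left out, and 32 lower with the replicate block. In embryos it called 4 higher and 0 lower (171 lower at an unadjusted p under 0.05), against 9 and 1 in DESeq2, 12 and 1 with all 11 libraries, 30 and 2 without a filter, 1 and 1 with the replicate block, and 0 to 5 and 0 to 4 with 1 library left out. List genes called higher in oocytes numbered 1 with all 11 libraries and 1 to 3 with 1 library left out, against 3, and DESeq2 called 1 lower; without a filter 1 was called higher in embryos. Stage changes of the 9 genes kept direction and call in 99 of 108 control values and 91 of 99 knockout values. With 1 library left out, 0 to 1 of the 9 rose in the control and 0 to 1 in the knockout. The control change of Notch1 was -0.004 with all 11 libraries, -0.002 without a filter and -0.152 to 0.233 with 1 library left out, and the knockout change of Lmo4 was -0.284 to 0.457. Stox2 passed in the control with all 11 libraries (adjusted p = 0.0428). With the replicate block the knockout change of Ap3b2 did not pass (edgeR adjusted p = 0.0687) and that of Stox2 did (0.0378); of the members' stage calls these were the 2 it changed. The causes were not tested. Where a left-out library leaves 1 sample in a group, that sample is assumed to vary like the other group. The lowest levels, as for Brinp2 and Htr5b in control embryos, rest on 0 to 51 counts.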
